A study of Mus musculus with 4 samples.

Results

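Pdgfra-positive fibroblasts of the mouse lung were compared between embryonic day 18.5 (E18.5), just before birth, and postnatal day 7 (P7), when the gas-exchanging sacs are being divided into alveoli. The comparison uses 2 of the 4 RNA-seq libraries of the study, 1 at E18.5 and 1 at P7, and the libraries at E16.5 and P28 are given beside them. Every library came from wild-type C57BL6 mice with no treatment or transgene named, embryos came from timed pregnant females, and the cells are labelled as Pdgfra+ fibroblasts of the lung. How the cells were selected, how many animals gave a library and the sex of the animals are not given in the sources used here. Both columns were first brought to a common scale by their median ratio over genes at 1 FPKM or more (fragments counted per kilobase of transcript and corrected for library size) in all 4 libraries. A gene was measured when its higher library was at 5 scaled FPKM or more, and 6130 of 23444 gene symbols were. Differences are on the log2(scaled FPKM + 1) scale, on which 1 is 2-fold and which understates the change of low genes. A pair of values joined by from and to, or by and, is scaled FPKM at E18.5 and then at P7. With 1 library a side there is no spread between animals and no test, so each difference is a difference in size between libraries.

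Pdgfra encodes a tyrosine kinase receptor that binds platelet-derived growth factor. In the lung it marks the mesenchymal cells that give rise to alveolar myofibroblasts, which lay down elastin at the tips of the growing septa, and to fibroblasts that store lipid and retinoids. Late in gestation a surge of glucocorticoid matures the lung, and at birth breathing begins. After birth the mesenchyme proliferates again while the capillary bed expands along the new septa, and the myofibroblasts later disappear from the mature lung.

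Pdgfra was measured in every library, at 77.3, 165, 82 and 174 scaled FPKM in order of age. Its difference between P7 and E18.5 was -1.0, just past 2-fold, but as deposited it was 95.9 FPKM at E18.5 and 113 at P7, which turns the direction. The general fibroblast list, collagen, microfibril and lung mesenchyme genes, had a median difference of -0.01 over 20 measured members, with 3 higher by 2-fold or more and 6 lower by that much. Its most abundant member was Mfap4, a microfibril-associated glycoprotein, at 1421 and 894. Pdgfra and the microfibril and collagen genes that define fibroblasts were thus present in both libraries.

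The scale of the libraries decides how many genes lie on each side. The scale factor of P7 was 2.37 times that of E18.5, and over the genes used for scaling the median log2 ratio of deposited values was 1.25. After scaling, 904 of 6130 measured genes (14.7%) lay above E18.5 at P7 by 2-fold or more and 738 (12.0%) below it by that much, so that 55.1% of the genes past 2-fold were higher. Without scaling the counts were 4180 and 191, and 95.6% of the genes past 2-fold were higher. Upper-quartile scaling gave 754 and 881, with 46.1% higher. The median difference over all measured genes was 0.05 after scaling, with quartiles of -0.49 and 0.60, and 1.17 over the same genes as deposited. Of 62 lists with at least 3 measured members, 29 had a median below 0 after scaling, and 22 of these lay above 0 as deposited over the same genes. Relative to the median of all genes, 57 of the 62 had the same sign on both scales. The deposited FPKM keep no read totals, so the depth of the libraries is unknown. The count of each list below is to be read beside the 14.7% higher and 12.0% lower of all measured genes. Several lists lay near both shares, such as Wnt genes (11.1% and 14.8%) and solute carriers (11.1% and 12.5%).

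**Figure D1:**
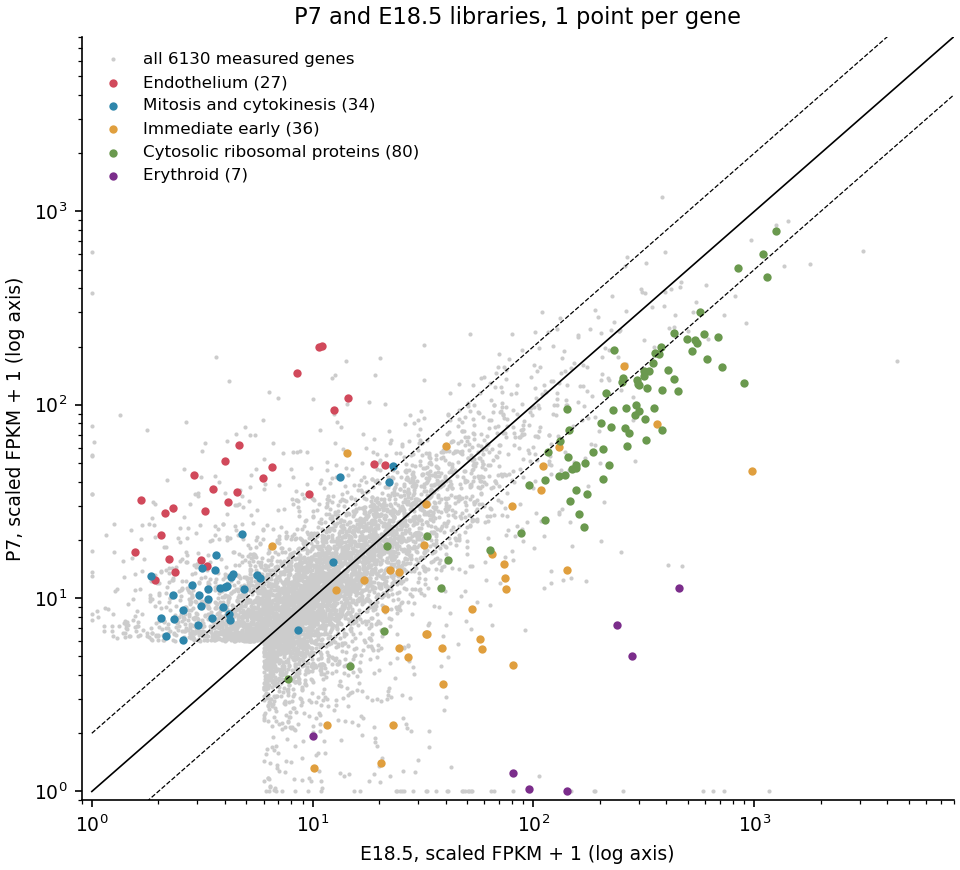
Scaled FPKM + 1 of the 6130 measured genes at E18.5 (horizontal, log axis) and P7 (vertical, log axis), 1 point per gene, with 5 gene lists in colour. The solid line marks equal values and the dashed lines 2-fold; all 27 endothelial genes lie above the upper line and all 7 erythroid genes below the lower one.

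Transcripts of other cell types differed strongly between the libraries and are given first, since several gene groups below move with them. In bulk RNA, fewer cells of a type and less RNA per cell cannot be told apart. All 27 measured endothelial markers of 30 listed were higher at P7 by 2-fold or more, against 14.7% of all measured genes, with a median of 2.95. Most of them reached the minimum only at P7, so this count and median favour higher genes. The listed markers below the minimum were Lyl1 (0.399 and 1.33), Mmrn2 (0.519 and 4.91) and Tal1 (0.344 and 3.995). The whole list, with no minimum, took 0.0394%, 0.0832%, 1.02% and 0.232% of the summed FPKM in order of age. Cdh5, the cadherin of endothelial junctions, was at 4.36, 9.97, 200.2 and 62.4 scaled FPKM in order of age, highest at P7. Calcrl, the receptor chain for adrenomedullin, was at 4.59, 9.7, 198 and 57, and the lectin receptor Cd93 at 3.88, 7.53, 145 and 38. Both had their lowest value at E16.5 and their highest at P7. Lyve1, a hyaluronan receptor of lymphatic endothelium, was at 6.27, 9.01, 106 and 24.6, again highest at P7, while Prox1, the transcription factor that defines lymphatic endothelium, was at 0.541, 3.53, 2.48 and 1.99.

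Of 19 measured genes that mark lung capillary subtypes, 14 were higher at P7 by 2-fold or more (73.7%, against 14.7% of all measured genes) and 2 lower. Here too, genes low at E18.5 entered the count only through P7. The 3 largest differences were those of Tmem100, a BMP-induced membrane protein (from 0.342 to 87.3), of Hpgd, which degrades prostaglandins (from 2.65 to 177), and of Epas1, the hypoxia-inducible factor HIF-2 alpha (from 3.17 to 131). The apelin receptor Aplnr, the carbonic anhydrase Car4 and the connexin Gja4 also lay far above their E18.5 values, at 45.8, 16.4 and 20.1 scaled FPKM against 1.61, 0.259 and 0.158. Ednrb, the endothelin receptor B, went the other way, from 148 to 17.6. The part of endothelial cells in the differences of other genes was not tested.

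Blood cell transcripts were the reverse. All 7 measured erythroid genes and all 10 measured leukocyte genes were at least 2-fold lower at P7, with medians of -5.80 and -3.02. Over all measured genes 12.0% were lower by that much. Except for Lyz2, Hba-a1 and Hbb-b1, these genes reached the minimum only at E18.5, so the counts and medians favour lower genes. The adult alpha globin Hba-a1 was at 1.96, 454, 10.2 and 0.765 scaled FPKM in order of age, so that E18.5 stood far above the other 3 libraries. The embryonic globins Hba-x and Hbb-y were at 141 and 79.7 at E18.5, and at P7 Hba-x is listed at 0 and Hbb-y was at 0.243. The neutrophil protein S100a8 was at 179, 28.1, 0.26 and 0, and the lysozyme Lyz2 at 833, 69.8, 10.9 and 4692. At P28 the whole leukocyte list summed to 4704 scaled FPKM, so nearly all of that sum was Lyz2. Its relative Lyz1, on the type 2 epithelial list, was at 450.6 at P28. The erythroid list took 0.753% of the summed FPKM before birth and 0.0159% at P7, and the leukocyte list 0.124% and 0.0132%. Of the 30 leukocyte genes, 5 are listed at 0 at E18.5 and 4 at P7. The pan-leukocyte gene Ptprc was at 0.923 and 0.202.

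Epithelial transcripts took a small share at both ages. Sftpc, the surfactant protein of alveolar type 2 cells, was at 19.5, 171, 11.3 and 9406 scaled FPKM in order of age, and the type 2 list took 0.0537%, 0.148%, 0.0318% and 6.55% of the summed FPKM. Slc34a2, a phosphate transporter of the same cells, went from 9.78 to 1.22, and the chemokine Cxcl15 from 5.0 to 0.435. The club cell secretoglobin Scgb1a1 went from 43.7 to 19 after scaling, and its direction turns as deposited. On the same airway list Tppp3 went from 9.05 to 25.7. The ciliated cell genes Foxj1 (0.606 and 0.126) and Ccdc153 (0.519 and 0) of that list were lower at P7 and below the minimum in both libraries. The epithelial adhesion gene Epcam was at 1.47 and 0.0610. The alveolar type 1 list took 0.0359% and 0.0548%, with 1 of 6 measured genes higher, 2 lower and a median of 0.39. Its chloride channel protein Clic5 went from 3.77 to 23.2, while Emp2 (20.8 and 27.9) and Hopx (3.86 and 7.2) were within 2-fold. The 2 lower members were Ager (from 7.19 to 1.11) and the claudin Cldn18 (from 5.9 to 0.37), so the list did not move together. Of 7 mesothelial genes, 4 were past 2-fold upward and 1 downward, the keratin Krt19 (from 9.92 to 3.04), which is on the airway list too. The 4 higher genes reached the minimum only at P7, so this count favours higher genes. Below the minimum, the keratins Krt8 (1.85 and 0.490) and Krt18 (1.74 and 0.538) were lower. Lrrn4 (0.276 and 4.16) and Upk1b (2.85 and 3.54), also below it, were higher. Mesothelin (Msln) went from 4.42 to 15.9, the uroplakin Upk3b from 2.4 to 10.8 and the membrane glycoprotein Gpm6a from 0.582 to 5.79, while the mesothelial transcription factor Wt1 was at 0.397 and 0.290. Pericyte markers were divided, with 3 of 12 higher, 3 lower and a median of 0.47. Of the nerve list 2 genes were measured, the neuronal genes Stmn2 (from 0.919 to 23) and Gap43 (from 1.83 to 9.09). None of the 15 cartilage genes in the table reached 5 scaled FPKM at either age. With all 214 symbols on lists for other cell types left out, 853 of 6032 genes were past 2-fold upward and 706 downward.

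**Figure D2:**
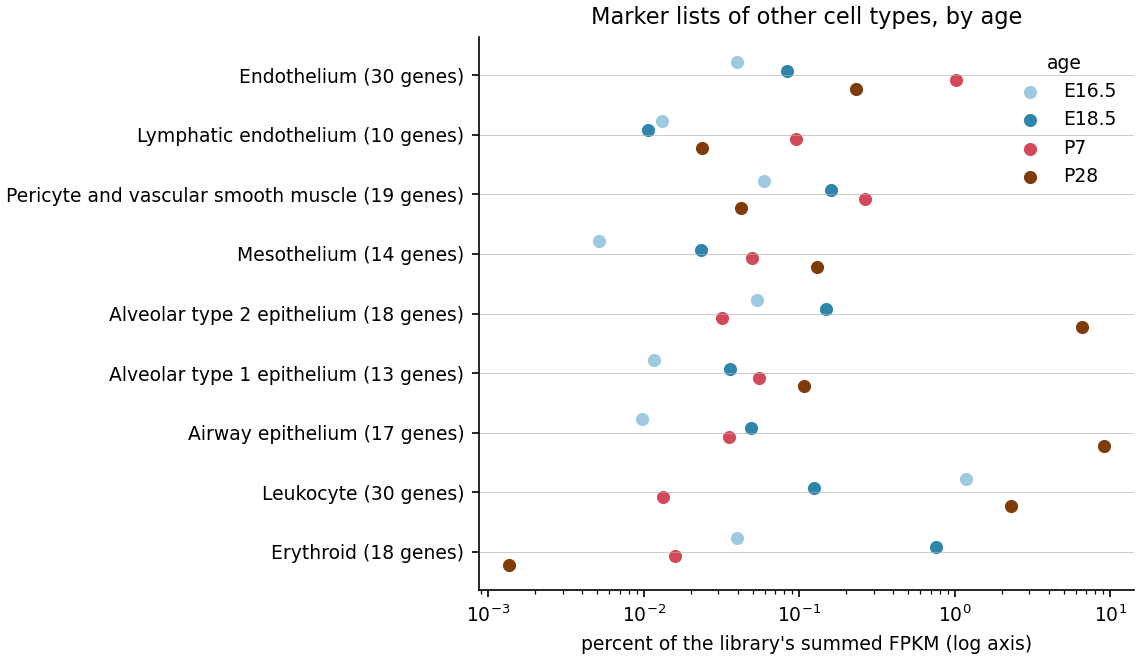
Share of each library's summed FPKM (percent, log axis) taken by whole marker lists of other cell types, 1 point per library. The endothelial list is highest at P7 (1.02%), the erythroid list at E18.5 (0.753%), and the type 2 and airway lists at P28.

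Genes of cell division were higher at P7. Of 34 measured mitosis and cytokinesis genes, 29 were at least 2-fold higher (85.3%, against 14.7% of all measured genes) and 0 lower, with a median of 1.56. Their median level was 2.72 scaled FPKM at E18.5 and 10.3 at P7. Many reached the minimum only at P7, so this count and median favour higher genes. The whole list of 40, with no minimum, took 0.49%, 0.0888%, 0.322% and 0.0351% of the summed FPKM in order of age. The forkhead factor Foxm1, which drives transcription of mitotic genes, was at 11.6, 0.862, 12.1 and 1.77 scaled FPKM in order of age. The kinesin Kif11, which separates the spindle poles, was at 25, 2.63, 15.8 and 1.38, and the kinase of the chromosomal passenger complex Aurkb at 18.1, 2.14, 13.2 and 1.02. Cyclin A2 (Ccna2) was at 26.2, 3.76, 20.3 and 2.09. In each of these genes E16.5 and P7 were high and E18.5 and P28 low. The proliferation antigen Mki67, at 21.1 and 39, and the ubiquitin-conjugating enzyme Ube2c, the most abundant member from 22.1 to 47.5, differed less. Securin (Pttg1) was the 1 member below 0 after scaling, though not as deposited, at 7.61 and 5.85.

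Replication genes followed with smaller differences. Of 21 measured, 8 were at least 2-fold higher, 0 lower and 19 above 0, with a median of 0.93. Their median level at E18.5 was 4.77 scaled FPKM, so most of them reached the minimum only at P7, which favours higher genes. The whole list of 43, with no minimum, took 0.11% of the summed FPKM at E18.5 and 0.23% at P7. Rrm2, the regulated subunit of the enzyme that makes deoxyribonucleotides, was at 32.5, 2.09, 22.8 and 1.99 scaled FPKM in order of age. The replicative helicase component Gins2 was at 42.6, 2.6, 22.6 and 3.79, and the chromatin assembly subunit Chaf1b at 6.01, 0.431, 5.99 and 0.885. Pcna, the sliding clamp and the most abundant member, differed by less than 2-fold, at 56.5 and 51.7. The genes that set entry into the cycle were mixed, with 4 of 20 higher and 6 lower. Cyclin D1 (Ccnd1) went from 5.06 to 37.7, and the inhibitor of CDK4 and CDK6 Cdkn2c from 3.83 to 19.2. Cdkn1a, which encodes the CDK inhibitor p21, went from 37.8 to 5.38. The antiproliferative gene Btg2 went from 141 to 13, and the growth-promoting factor Myc from 72.3 to 13.9. Transcripts of mitosis and those of p21 and Btg2 thus lay on opposite sides.

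The promoters of mitotic genes are known for 2 elements, the cell cycle genes homology region (CHR), bound by complexes that silence the gene in quiescent cells, and the CCAAT box, bound by NF-Y. In the RefSeq promoter table for GRCm38.p6, which spans 250 bases before to 50 after the annotated start, 28 of the 34 measured mitosis genes had an entry. TTTGAA or TTTAAA on either strand, 2 forms of the CHR, was found in 23 of these 28 (82.1%), against 18.0% of 4615 promoters of measured genes and 27.8% of all 27025. CCAAT on either strand was in 21 of 28 (75%), against 38.6% and 37.9%. Among 17 replication genes 4 held the CHR letters (23.5%) and 14 CCAAT (82.4%). Such short letters also occur by composition alone, so a match is a description of the sequence and not a bound site. Shown here are 4 mitosis genes that had an entry, taken in order of difference after genes on 1 chromosome were passed over. For each gene the last 150 bases of the window are given, with the CHR letters and CCAAT on either strand in capitals. Each holds 1 CHR match and 1 or 2 CCAAT matches, and no CHR match overlaps a CCAAT match. They are Kif11 on the plus strand at chr19:37376282-37376431, cyclin B1 (Ccnb1) on the minus strand at chr13:100786437-100786586, the chromokinesin Kif4 on the plus strand at chrX:100625965-100626114, and the checkpoint kinase Ttk on the plus strand at chr9:83834589-83834738.
Kif11: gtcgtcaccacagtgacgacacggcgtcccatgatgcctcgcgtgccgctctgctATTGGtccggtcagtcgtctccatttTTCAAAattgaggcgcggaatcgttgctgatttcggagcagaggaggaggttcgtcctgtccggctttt
Ccnb1: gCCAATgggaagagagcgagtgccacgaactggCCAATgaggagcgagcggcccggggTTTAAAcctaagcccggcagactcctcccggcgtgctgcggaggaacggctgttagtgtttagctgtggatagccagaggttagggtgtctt
Kif4: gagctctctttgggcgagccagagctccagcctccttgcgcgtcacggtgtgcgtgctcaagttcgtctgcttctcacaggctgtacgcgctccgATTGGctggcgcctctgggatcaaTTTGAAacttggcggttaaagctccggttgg
Ttk: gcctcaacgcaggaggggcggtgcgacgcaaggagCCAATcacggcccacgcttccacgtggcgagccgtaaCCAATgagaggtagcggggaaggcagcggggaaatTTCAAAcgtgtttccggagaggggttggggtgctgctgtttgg
In Kif11 the CCAAT box stands as its complement ATTGG and the CHR as TTCAAA. The 4 genes had differences of 2.21, 2.16, 2.04 and 1.93, and their values at E18.5 ran from 1.05 to 2.63 scaled FPKM.

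Immediate early genes, which growth signals, stress or the dissociation of tissue switch on within minutes without new protein synthesis, were lower at P7. Of 36 measured, 26 were at least 2-fold lower (72.2%, against 12.0% of all measured genes) and 2 higher, with a median of -2.24 (-1.06 as deposited). Zfp36, which destabilises AU-rich messages, was at 283, 972, 44.4 and 175 scaled FPKM in order of age. The stress factor Atf3 was at 37.5, 79.8, 3.53 and 14.5, the orphan nuclear receptor Nr4a3 at 3.73, 19.5, 0.399 and 3.53, and Csrnp1 at 9.79, 37.9, 2.62 and 3.57. P7 was the lowest of the 4 libraries for Zfp36, Atf3, Nr4a3 and Csrnp1, and E18.5 the highest. The 2 members that were higher were the shear-stress factors Klf2 (from 5.53 to 17.6) and Klf4 (from 13.3 to 55.2), both also abundant in endothelium. Dusp1, a MAP kinase phosphatase, differed by less than 2-fold, at 257 and 158.

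Genes that respond to glucocorticoid were lower as well, with 18 of 25 at least 2-fold lower, 2 higher and a median of -1.64 (-0.49 as deposited). The metallothionein Mt1, a cysteine-rich metal-binding protein, was at 8.6, 105, 0.197 and 16.9 scaled FPKM in order of age, and its neighbour Mt2 at 2.12, 25.7, 1.12 and 27.1. The zinc finger factor Zbtb16 was at 2.47, 13.6, 0.23 and 27.1, and Klf9 at 3.22, 64.1, 6.24 and 41.5. In all of them E18.5 and P28 lay above both E16.5 and P7. The receptor itself, Nr3c1, was at 12.5, 24.6, 14.5 and 12.5. Sgk1, a kinase of the same response, was 1 of the 2 higher members, from 7.45 to 55.9. Of 6 measured clock genes 0 were higher and 3 lower, with a median of -1.11 after scaling and 0.03 as deposited. The light- and hormone-responsive repressor Per1 went from 19.5 to 5.85. The repressors Bhlhe40 and Nfil3, which feed into the clock, went from 48.5 to 6.62 and from 26 to 4.69.

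Metallothionein genes carry metal-response elements, where the zinc-sensing factor MTF1 binds. The letters TGCGCNC or TGCACNC on either strand, the core of that element, occur in 38.0% of promoters of measured genes and 25.6% of all, so a single match carries little. Mt1 and Mt2 lie next to each other on chromosome 8, and the last 250 bases of each window hold 3 matches, in capitals below, at chr8:94178889-94179138 for Mt1 and chr8:94172418-94172667 for Mt2, both on the plus strand.
Mt1: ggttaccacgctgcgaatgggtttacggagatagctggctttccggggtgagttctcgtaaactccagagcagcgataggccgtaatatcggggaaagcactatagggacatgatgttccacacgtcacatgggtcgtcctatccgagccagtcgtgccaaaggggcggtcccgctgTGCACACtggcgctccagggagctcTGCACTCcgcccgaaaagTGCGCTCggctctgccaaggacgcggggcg
Mt2: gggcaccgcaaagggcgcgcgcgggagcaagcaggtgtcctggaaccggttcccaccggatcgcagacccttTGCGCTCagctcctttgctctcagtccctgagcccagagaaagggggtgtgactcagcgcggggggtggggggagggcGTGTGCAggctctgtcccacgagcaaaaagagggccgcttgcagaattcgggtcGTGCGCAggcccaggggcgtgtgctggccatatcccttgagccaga
In Mt1 the 3 matches lie close together near the start, while in Mt2 they are spread over the window. The CArG box, the core of the serum response element, was in 2 of 28 promoters of immediate early genes (7.14%) and 3 of 16 of contractile genes (18.8%), against 1.56% of promoters of measured genes. The palindromic cyclic AMP response element was in 3 of 28 immediate early promoters (10.7%), against 3.45%.

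**Figure D3:**
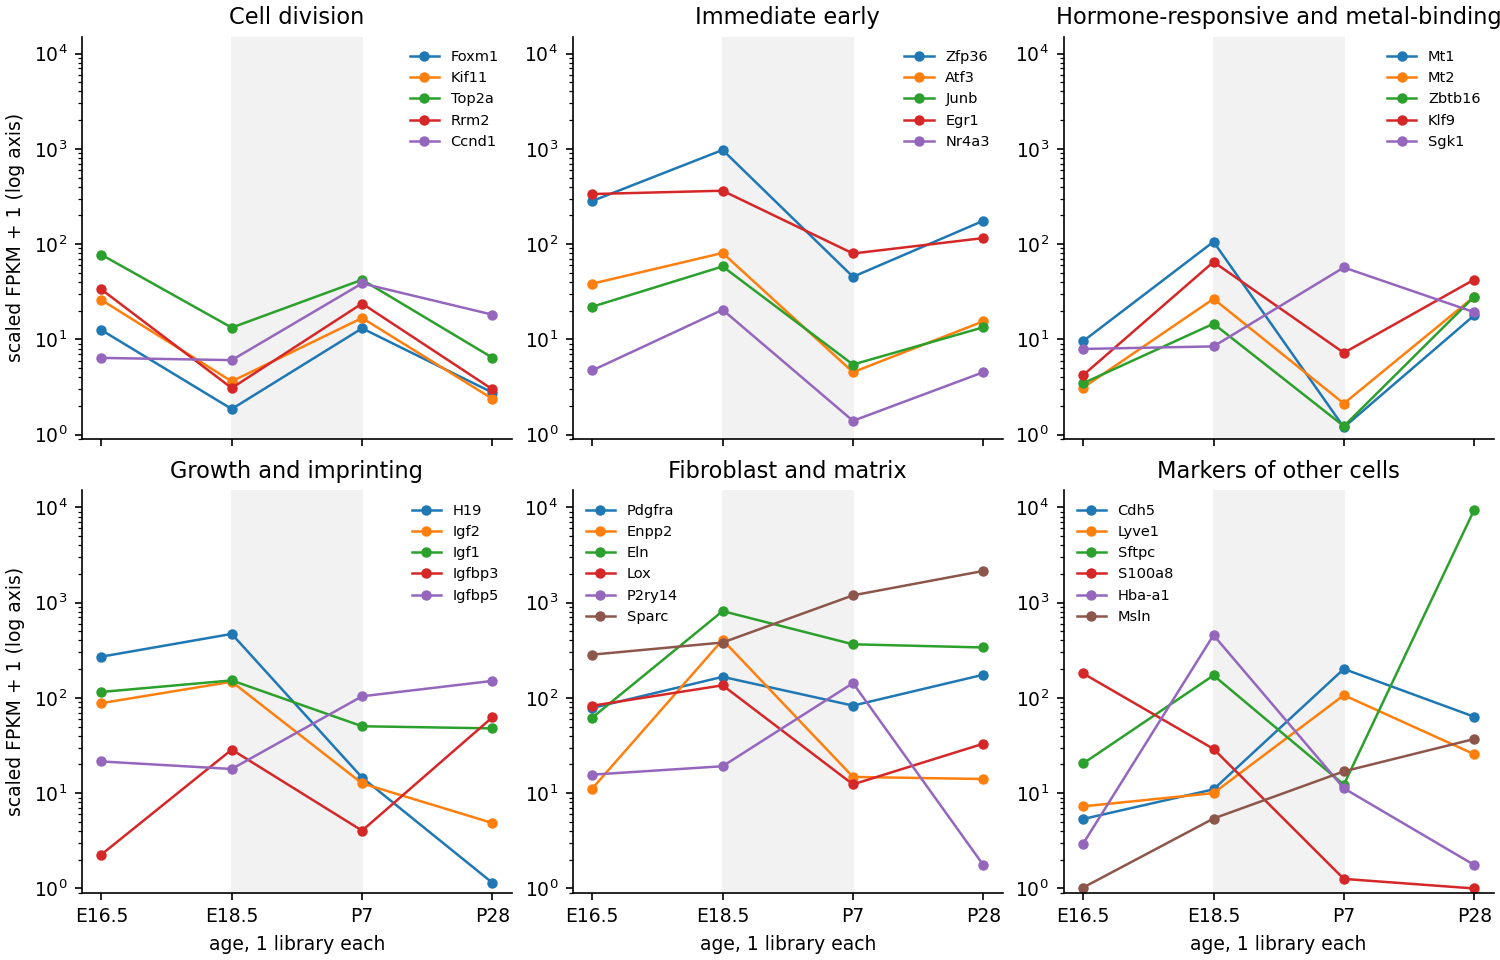
Scaled FPKM + 1 (log axis) of selected genes in the 4 libraries, in order of age, with the interval from E18.5 to P7 shaded. Cell division genes are low at E18.5 and high at P7, while immediate early genes, metallothioneins, H19 and Igf2 run the other way.

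Fetal growth genes were lower at P7 after scaling, with a median of -1.08 over 21 measured genes of the IGF axis and imprinted growth genes, which turned to 0.12 as deposited. Of them, 11 were lower by 2-fold or more and 2 higher. H19, the maternally expressed noncoding RNA (GRCm38 chromosome 7, 142575530 to 142578146), was at 269.6, 468, 13.6 and 0.146 scaled FPKM in order of age. Igf2, the fetal growth factor beside it, expressed from the paternal allele, was at 87, 147, 11.7 and 3.86. The imprinted noncoding RNA Meg3 of chromosome 12 was at 11.7, 24.6, 1.4 and 1.51, and Rian of the same cluster at 12.6, 21.6, 2.09 and 1.75. H19, Igf2, Meg3 and Rian were all higher in both fetal than in both postnatal libraries. The binding proteins did not move together, since Igfbp3 went from 27.6 to 3.04 and Igfbp5 from 16.9 to 103. The most abundant member, the stimulatory G protein gene Gnas, was at 391 and 614. RNA-binding and chromatin genes of the fetal state had a median near 0 (0.02, 2 of 20 higher and 3 lower), although Igf2bp2, which binds Igf2 messages, went from 5.43 to 0.402 and its relative Igf2bp3 from 7.21 to 1.69.

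Alveolar myofibroblast genes were divided, with 5 of 19 at least 2-fold higher, 6 lower and a median of -0.16 (1.07 as deposited). Enpp2, which makes lysophosphatidic acid and is known as autotaxin (GRCm38 chromosome 15, 54838901 to 54952789), was at 10.2, 405, 13.8 and 13.1 scaled FPKM in order of age, so that the E18.5 value stood far above the other 3. Hhip, the hedgehog decoy receptor, was at 24.2, 90.3, 5.87 and 7.06. P2ry14, a receptor for UDP-glucose, was at 14.7, 18.2, 142 and 0.762, highest at P7. The binding protein Igfbp5 and the leucine-rich proteoglycan Aspn were also higher, the latter from 7.53 to 21.8. Tgfbi, a secreted adhesion protein and the most abundant member, was at 541 and 340.4. Contractile genes had a median of 0.00 (1.19 as deposited), with 4 of 20 higher and 1 lower. Gamma smooth muscle actin (Actg2) went from 21.2 to 71.9 and alpha smooth muscle actin (Acta2) from 68 to 156. The actin-binding caldesmon (Cald1) went from 68.6 to 181 and the cross-linker alpha-actinin (Actn1) from 16.4 to 38.9. The most abundant, tropomyosin 1 (Tpm1), was at 408 and 249.

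The lists of mature fibroblast types each held genes on both sides. Of 18 measured alveolar Col13a1 fibroblast genes, 3 lay past 2-fold upward and 6 downward, while the P28 minus E16.5 median of the same genes was 3.15. Fmo2, a flavin monooxygenase, was at 11.1, 249, 16.4 and 237 scaled FPKM in order of age, with E18.5 level with P28 and P7 near E16.5. The sodium channel Scn7a (3.38, 19.2, 173 and 75) and Fmo1 (4.2, 9.75, 73.2 and 52.2) were highest at P7, and the mesenchymal transcription factor Tcf21, known from lipid-storing fibroblasts, was at 30.1, 88.8, 18.8 and 130.3. Of 12 measured genes of Col14a1 adventitial fibroblasts 4 were higher and 3 lower. The stem cell antigen Ly6a went from 2.25 to 62.1, the sialomucin Cd34 from 13.4 to 99.9 and the peptidase Dpp4 from 0.463 to 6.27. Ly6a and Cd34 are also made by endothelium, whose markers were higher in the same library, and the part of these cells was not tested. Of 12 lipofibroblast genes 4 were higher and 5 lower, with a median of 0.02. Apolipoprotein E (Apoe) went from 62.7 to 8.26 and glycogenin (Gyg), the primer of glycogen, from 169.6 to 52.2. The fatty acid translocase Cd36, which capillary endothelium also makes, went from 3.94 to 75.5.

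**Figure D4:**
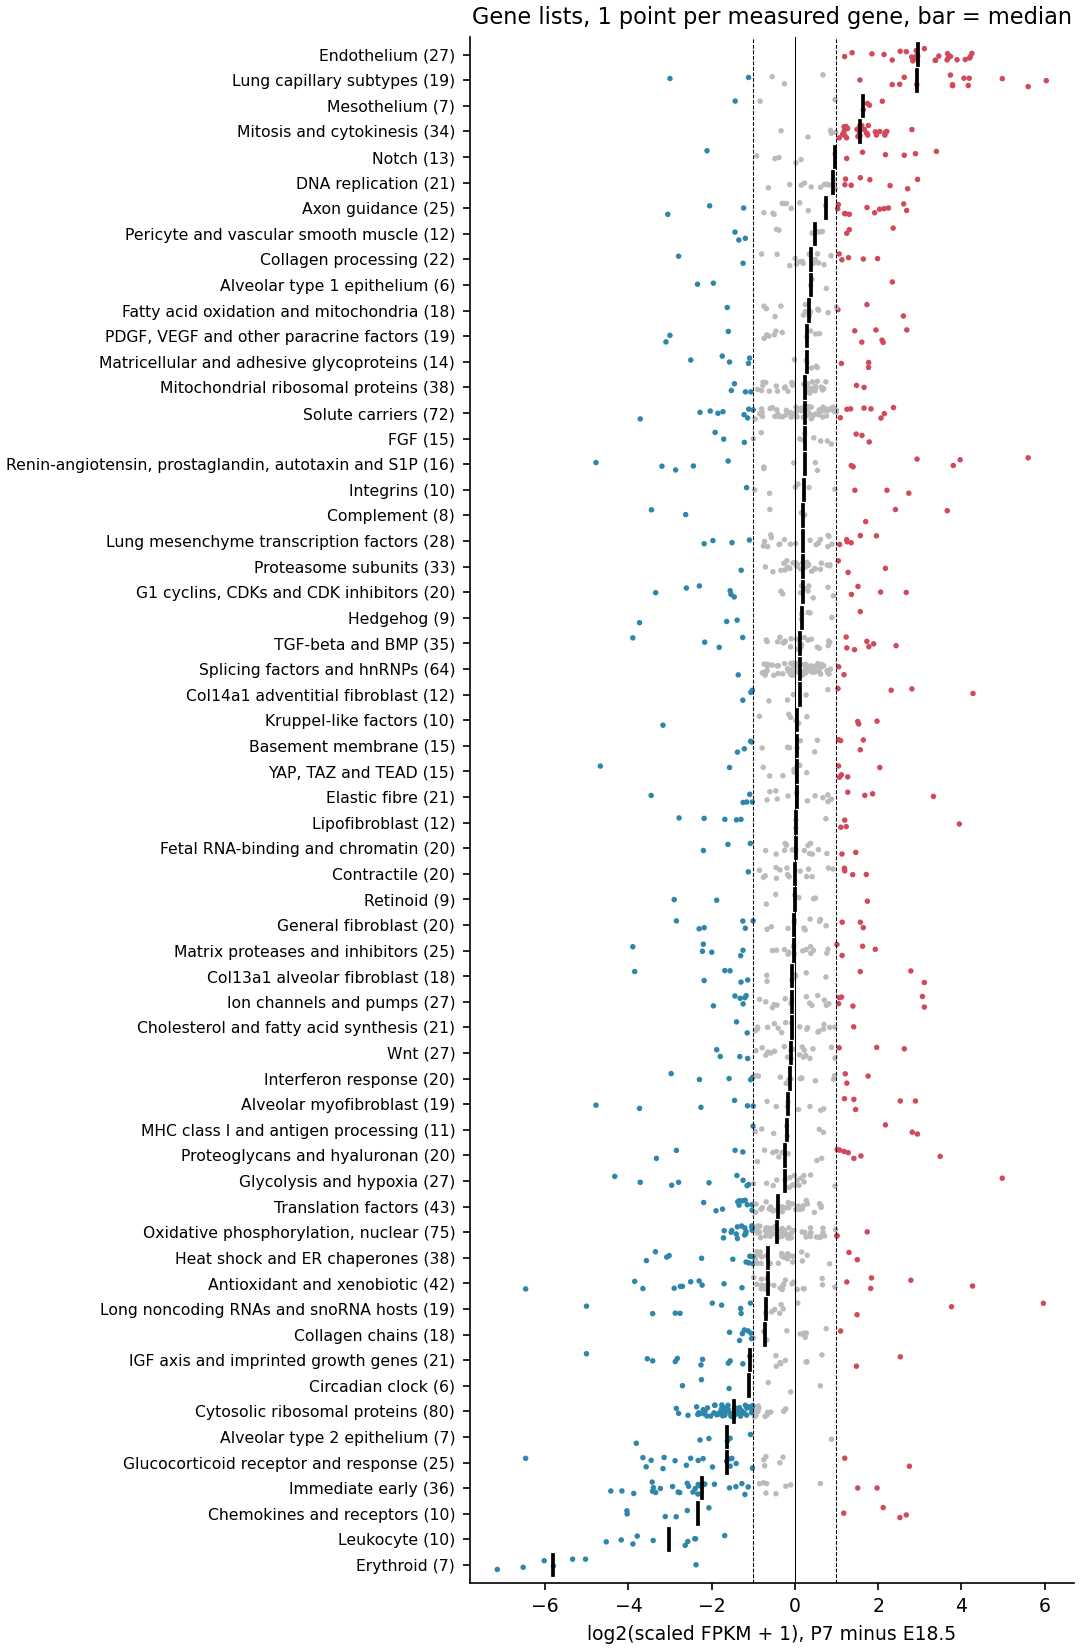
Differences on the log2(scaled FPKM + 1) scale, P7 minus E18.5, for every list with at least 6 measured genes, 1 point per gene and a bar at the median, ordered by median, with the number measured in brackets. Red points are at least 2-fold higher at P7 and blue points at least 2-fold lower; most lists of fibroblast state and signalling straddle 0.

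Matrix genes were divided gene by gene. Collagen chains had 1 of 18 measured genes past 2-fold upward and 7 downward, with a median of -0.71 after scaling and 0.36 as deposited. Chains of the beaded filament collagen VI were lower, Col6a3 from 108 to 35.9 and Col6a1 from 100.3 to 39.3. Col15a1, a basement membrane collagen, went from 14.2 to 5.55. The most abundant fibrillar chain, Col3a1, was at 322 and 543. Collagen processing had 5 of 22 higher and 2 lower, with a median of 0.40. Sparc, a collagen chaperone and the most abundant member, was at 283, 379.9, 1189.8 and 2146 scaled FPKM in order of age, and the procollagen enhancer Pcolce2 at 1.74, 2.06, 11.1 and 259.5, each higher at every later age. The procollagen peptidase Adamts14 went from 19.5 to 1.95.

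Elastic fibre genes, which include what myofibroblasts secrete into the septa, were 4 of 21 higher and 5 lower with a median of 0.04. Lysyl oxidase (Lox), which cross-links elastin and collagen, was at 81.7, 134, 11.4 and 32 scaled FPKM in order of age, the lowest at P7. Its relative Loxl1 went from 2.43 to 11.5, so that the 2 oxidases lay on opposite sides. Of 5 fibulin family genes measured, Fbln2 (from 1.62 to 25.3) and Fbln5 (from 3.01 to 11.9), which bind elastic fibres, were higher. Fbln1 went from 33.7 to 16.1 after scaling and turns direction as deposited, and Efemp1 (2.62 and 5.66) and Efemp2 (19.4 and 14.2) were within 2-fold. Elastin itself (Eln), not among the genes named by rule, was at 61, 813, 364 and 337. Scaled, it was lower at P7 than at E18.5, and as deposited it was at 472 FPKM and 501 FPKM, so its direction rests on the scaling.

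Basement membrane genes had 4 of 15 higher and 4 lower, with Lama2 from 39 to 14.4 and nephronectin (Npnt), a ligand of integrin alpha 8, from 15.7 to 48.7. Among proteoglycans and hyaluronan genes 7 of 20 were higher and 4 lower. The granule proteoglycan Srgn, made by blood and endothelial cells, went from 11.3 to 137. The collagen-binding lumican (Lum) went from 20.6 to 2.01 and the hyaluronan-binding protein Tnfaip6 from 18.1 to 0.901. The most abundant, biglycan (Bgn), was at 602 and 417. Matricellular genes were 3 of 14 higher and 5 lower. Thrombospondin 1 (Thbs1) went from 288 to 50, the large adhesive protein Svep1 from 13.6 to 3.34, and thrombospondin 3 (Thbs3) from 1.39 to 7.15. Matrix proteases and inhibitors were 4 of 25 higher and 6 lower. The proteoglycan-cleaving Adamts1 went from 176 to 37, the gelatinase Mmp2 from 198 to 48.9 and the membrane protease Adam19 from 11.7 to 47.6. Of the genes named here, Thbs1 and Adamts1 are also induced as early responses to serum or stress.

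Of the signalling pathways, hedgehog had 1 of 9 measured genes past 2-fold upward and 3 downward. Hhip, a target of the pathway, had the largest difference (-3.73), and Boc, a co-receptor, went from 18.9 to 6.59. Foxf1, a forkhead factor that hedgehog induces in lung mesenchyme and that endothelium also makes, was at 30, 30, 91.3 and 15.4 scaled FPKM in order of age, highest at P7. Ptch1, the receptor and target, was at 33.2 and 37.2, within 2-fold. Wnt genes were 3 of 27 higher and 4 lower, with the receptors Fzd4 from 2.92 to 23.3 and Fzd6 from 0.649 to 5.45. The antagonist Sfrp1 went from 10.4 to 2.1 and the co-receptor Ror2 from 9.63 to 2.07. The transducer beta-catenin (Ctnnb1) was at 52.9 and 98.2. FGF genes were 3 of 15 higher and 3 lower. The feedback inhibitors differed in direction, since Spry2 went from 15.3 to 3.31 and Dusp6 from 5.61 to 21.8.

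TGF-beta and BMP genes were 7 of 35 higher and 4 lower, with a median of 0.14. The ligand Gdf10 (from 15.3 to 2.62) was lower, while the BMP target Smad6 (from 2.77 to 19.3) and the ligand Bmp6 (from 4.08 to 17.8) were higher. Notch genes had 6 of 13 higher, 1 lower and a median of 0.96. The ligand Dll4 went from 0.567 to 6.08 and the glycosyltransferase Mfng, which tunes the receptors, from 0.524 to 15.1. The targets Nrarp and Hey1 went from 0.0673 to 6.96 and from 4.13 to 30.7, whereas the target Hes1, also an early response gene, went from 108 to 24.2. Axon guidance genes, which also steer vessels, were 12 of 25 higher and 3 lower, with a median of 0.74. Ntn1 (netrin 1) went from 0.538 to 8.9, and the semaphorin Sema6a from 2.94 to 23.1. The ephrin receptor Epha3 went from 39.9 to 3.93 and the semaphorin receptor Plxna2 from 36.2 to 7.99. Hey1, Robo4 and Sema3c are on the endothelial or capillary lists too, which makes 1 of the 6 higher Notch genes and 2 of the 12 higher guidance genes. Dll4, Smad6 and Bmp6 are made by endothelium as well as by other cells. The endothelial list took 0.0832% and 1.02% of the summed FPKM, and its part in the Notch, BMP and guidance differences was not tested.

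Paracrine ligands and receptors were 6 of 19 higher and 3 lower. Pleiotrophin (Ptn) was at 25.6, 37.2, 3.47 and 1.52 scaled FPKM in order of age and Igf1 at 114, 152, 49.4 and 46.8, both higher before than after birth. The ligand Pdgfb, made chiefly by endothelium, went from 1.18 to 13 and the lymphangiogenic ligand Vegfc from 1.23 to 8.51. The heparin-binding factor midkine (Mdk), the most abundant, was at 184 and 109.9. Of the lipid mediator and angiotensin genes 6 of 16 were higher and 5 lower, and the range of differences was the widest among the signalling lists, from -4.78 (Enpp2) to 5.61 (Hpgd). The sphingosine phosphate receptor S1pr1 and angiotensin-converting enzyme (Ace), both abundant in endothelium, went from 3.52 to 69.8 and from 4.96 to 82.3, and the part of endothelium was not tested. YAP and TAZ pathway genes were 5 of 15 higher and 2 lower, with the kinase Lats2 from 8.46 to 37.9, and Wwtr1, which encodes TAZ, is listed at 0 at P7 and at 24.5 at E18.5. Retinoid genes had 1 of 9 higher and 2 lower, with the retinaldehyde dehydrogenases on opposite sides, Aldh1a1 from 50.9 to 5.96 and Aldh1a2, which mesothelium also makes, from 3.46 to 13.9. The most abundant of them, Adh1, was at 260.5 and 162.

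Transcription factors of lung mesenchyme were 6 of 28 higher (21.4%) and 4 lower (14.3%), with a median of 0.19. Over all measured genes these shares were 14.7% and 12.0%. The forkhead factors Foxp1 and Foxp2 lay on opposite sides, Foxp1 at 5.27, 6.39, 27.8 and 11.2 scaled FPKM in order of age and Foxp2 at 2.65, 8.66, 1.47 and 1.51. Tcf21 was lower and Foxf1 higher, as given above. Of 5 measured Hox genes, Hoxb5 (from 11.4 to 32.9) and Hoxb3 (from 3.6 to 9.96) were at least 2-fold higher, and Hoxa5 (15.4 and 19.9), Hoxa2 (7.44 and 10.5) and Hoxb4 (6.53 and 5.06) were within 2-fold. Kruppel-like factors were 3 of 10 higher and 1 lower, which was Klf9. Klf3 went from 21.7 to 64.6.

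Ribosomal protein transcripts were lower at P7 as a block. Of 80 measured, 65 were lower by 2-fold or more, 0 higher and all 80 below 0, with a median of -1.47 (-0.24 as deposited). Together they took 14.5% of the summed FPKM before birth and 6.88% at P7. Rpl10, the most abundant, was at 1362, 1246, 790.1 and 848 scaled FPKM in order of age and Rps19 at 173, 379.7, 73.1 and 83. Ribosomal protein genes have many processed pseudogenes, among which the counting can divide reads, so single members are uncertain. The letters CTTTCC, which occur in the pyrimidine tract at the start of these messages, were searched on either strand and anywhere in the promoter window. They were in 28 of 59 of these promoters (47.5%), against 27.3% of promoters of measured genes. Position and strand were not required, so the share does not count the tract itself. Translation factors had 0 of 43 higher and 11 lower (median -0.40, 0.83 as deposited), with the elongation factor Eef1a1 from 1791 to 536 and Eef1b2 from 79.1 to 16.5. Mitochondrial ribosomal proteins (2 of 38 higher and 4 lower), splicing factors (2 of 64 higher and 1 lower) and proteasome subunits (3 of 33 higher and 1 lower) had medians of 0.25, 0.13 and 0.19, so most of these genes lay within 2-fold. Transcripts of lower genes were shorter, with a median annotated length of 1858 bases against 2875 for higher genes and 2904 for the genes within 2-fold, and 2084 for lower genes without ribosomal proteins; the part of length in the differences was not tested.

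Heat shock and endoplasmic reticulum chaperones had 2 of 38 higher and 11 lower (median -0.64, 0.58 as deposited). The inducible chaperones Hspa1a (from 25.5 to 1.24) and Hspa1b (from 9.73 to 0.27) were lower. So were the small heat shock protein Hspb1 (from 200.2 to 18.7) and the ER stress factor Ddit3 (from 24.5 to 2.14). The constitutive Hspa8, the most abundant, was at 458 and 404, within 2-fold. Hspa1a and Hspa1b are near-identical copies, among which reads can be divided. Oxidative phosphorylation genes were 3 of 75 higher and 16 lower (median -0.42, 0.74 as deposited), with cytochrome c1 (Cyc1) from 13.1 to 46.1 and the complex I subunit Ndufb2 from 6.93 to 1.41. The ATP synthase subunit Atp5b, the most abundant, went from 259 to 523. Glycolysis and hypoxia genes were 1 of 27 higher and 9 lower (median -0.23, 0.93 as deposited). Among genes that hypoxia induces, the inhibitory factor Hif3a went from 24.7 to 0.278, the glucose transporter Slc2a1 from 39.3 to 2.07 and hexokinase 2 (Hk2) from 7.97 to 0.153. Lactate dehydrogenase A (Ldha) was at 152 and 162. Epas1 was the 1 higher member and is also a capillary gene.

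Fatty acid oxidation genes were 3 of 18 higher and 1 lower. Carnitine palmitoyltransferase (Cpt1a) went from 8.88 to 31.8 and the mitochondrial carrier Ucp2 from 3.85 to 28.6. Antioxidant and xenobiotic genes were 5 of 42 higher and 11 lower (median -0.65, 0.57 as deposited). Cyp4b1, an extrahepatic cytochrome P450, was at 0.0958, 0.26, 23.3 and 28.8 scaled FPKM in order of age, while Fmo2, Mt1 and Mt2 were lower as given above. Superoxide dismutase 1 (Sod1), the most abundant, was at 526 and 299. Sterol and fatty acid synthesis genes were 1 of 21 higher and 2 lower, with the elongase Elovl5 from 10.7 to 30.1 and the feedback protein Insig1 from 24.4 to 8.59. Solute carriers were 8 of 72 higher and 9 lower. The taurine transporter Slc6a6 went from 7.16 to 41.2. Ion channels and pumps were 6 of 27 higher and 6 lower, with the water channel Aqp1, another endothelial gene, from 4.55 to 45.5 and the T-type calcium channel Cacna1g from 9.88 to 1.8. Integrins were 3 of 10 higher and 1 lower, with the laminin-binding chains Itga6 from 3.62 to 29.8 and Itga3 from 1.95 to 7.01. The collagen-binding chain Itga2 went from 1.66 to 11.3, and the shared beta 1 chain Itgb1 at 146 and 154.

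Immune genes of the fibroblast libraries were divided. Of 11 measured class I genes 3 were higher and 1 lower. The antigen-presenting chain H2-D1 went from 3.68 to 35, H2-K1 went from 3.8 to 32.9 and the immunoproteasome subunit Psmb8 from 0.595 to 6.21. Complement C3 was at 15.9, 4.51, 68.7 and 417 scaled FPKM in order of age and C7 at 0.0371, 1.33, 11.4 and 459, both highest at P28, and C1qb and C1qc, made by macrophages, are listed at 0 at P7. The leukocyte list took 0.124% and 0.0132% of the summed FPKM, and the endothelial list 0.0832% and 1.02%. The part of either cell type in the immune differences was not tested. Interferon response genes were 3 of 20 higher and 5 lower, with Irf1 from 23.1 to 3.92 and Ifitm1 from 44.5 to 4.8. Of 10 measured chemokines and receptors 4 were higher and 6 lower. The inflammatory ligands Cxcl10 (from 32.6 to 1.06) and Cxcl1 (from 8.85 to 0.138) were lower and Cxcl2 is listed at 0 at P7. The stromal ligand Cxcl12, the most abundant, went from 10.7 to 49.8 and its scavenger receptor Ackr3 from 2.44 to 18.8.

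Of the 15 largest positive differences among genes at 10 scaled FPKM or more, passing over predicted, small RNA and pseudogene symbols, 7 were on endothelial lists, and of the 15 largest negative ones 6 were globins. Several of the others are on no list. The incretin receptor Glp1r was at 0.84, 0.785, 72.7 and 14.9 scaled FPKM in order of age, the protocadherin Pcdh1 at 1.13, 1.68, 80 and 23.4, and the scaffold protein Slc9a3r2 at 5.75, 5.37, 115 and 87. All were highest at P7 and remained above the fetal values at P28. The ferritin receptor Scara5, on the negative side, was at 18.7, 41.4, 0.332 and 15.3, so that P7 was the exception among the ages. Lars2, the mitochondrial leucyl-tRNA synthetase, was at 321, 4422, 167 and 739, and at E18.5 it had the highest scaled value of any measured gene. That value rests on 1 library, and whether reads of another origin were counted under this symbol was not tested. The 15th and 16th positive differences were 4.19 and 4.17, and the 15th and 16th negative ones -4.42 and -4.37.

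An exact 0 can be a failed estimate rather than a level. Actr3, a subunit of the actin-nucleating complex that all cells use, is listed at 0 at P7 and at 80.2, 47.8 and 29.4 scaled FPKM in the other 3 libraries, in order of age. In all, 30 symbols at 10 or more at E18.5 are listed at 0 at P7 and 10 are the reverse, most of them microRNA and small nucleolar RNA genes, whose short length makes FPKM unreliable. Long noncoding RNAs and host genes were 3 of 19 higher and 9 lower, with a median of -0.70 (0.53 as deposited). Malat1, the most abundant, was at 1256 and 853. Xist, a noncoding RNA that silences an X chromosome in female cells, was at 87.3 FPKM as deposited at P7 and below 0.1 in the other libraries, whereas the Y-linked genes Ddx3y, Eif2s3y, Kdm5d and Uty are listed at 0 at P7 and were above 1 FPKM elsewhere. The P7 library thus differs from the E18.5 library in sex markers, and sex and age cannot be told apart between them. Of 200 measured X-linked genes 27 (13.5%) were past 2-fold upward and 21 (10.5%) downward, close to the 14.7% and 12.0% of 5613 autosomal genes with a chromosome in the annotation.

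Beside the interval across birth stand the ends of the course, P28 against E16.5, which share no library with it. Of the 904 genes past 2-fold upward between E18.5 and P7, 354 (39.2%) were also past it upward between E16.5 and P28 and 126 (13.9%) downward, against 14.9% and 12.7% of all 6130 measured genes. Of the 738 lower genes, 118 (16%) were higher at P28 and 215 (29.1%) lower. Genes that were higher in both pairs were led by Epas1, Ly6a and Cyp4b1, given above, and by the adhesion receptor Gpr116, at 0.555, 3.11, 63.7 and 49.9 scaled FPKM in order of age. Among the first 10 of this class, Epas1, Ptprb, Tmem100 and Car4 are on the capillary list. The endothelial list took 0.0394% of the summed FPKM at E16.5 and 0.232% at P28, and the part of endothelium in this class was not tested. Genes higher at P7 but lower at P28 were led by Rrm2, P2ry14 and Gins2, and 33 of the 34 mitosis genes were at least 2-fold lower at P28 than at E16.5. Genes lower in both pairs included Hba-x, H19, the neutrophil genes S100a8 and Stfa2l1, and Igf2. Those lower at P7 but higher at P28 were led by Fmo2, Sftpc, Mt2, Klf9, Zbtb16 and Aldh1a1, the last at 7.18, 50.9, 5.96 and 546. Of the first 10 genes of that class 4 are on the glucocorticoid list, Mt2, Klf9, Zbtb16 and the secreted protein Crispld2, which was at 3.24, 15.1, 1.19 and 55.1. Sftpc of the same class is on the type 2 list, which took 0.0537% of the summed FPKM at E16.5 and 6.55% at P28. The part of epithelium in this class was not tested. The glucocorticoid list as a whole had 14 of 25 genes at least 2-fold higher at P28 than at E16.5, where it had 18 of 25 lower at P7 than at E18.5.

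**Figure D5:**
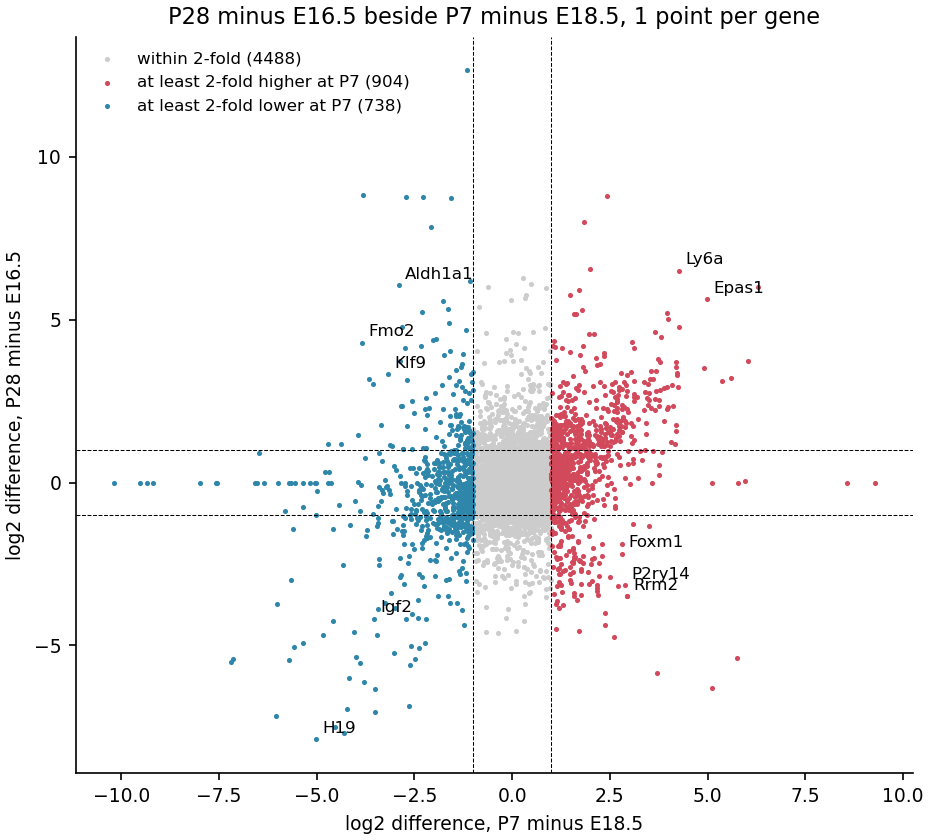
Log2 difference of each measured gene between P7 and E18.5 (horizontal) and between P28 and E16.5 (vertical), 1 point per gene, with dashed lines at 2-fold. Genes higher at P7 (red) reach the upper right with Epas1 and Ly6a and the lower right with Rrm2, P2ry14 and Foxm1; genes lower at P7 (blue) hold H19 and Igf2 below and Fmo2, Klf9 and Aldh1a1 above.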

How the data were processed

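RNA-seq of Pdgfra+ lung fibroblasts was available as 1 table with 1 FPKM column per age. Per the labels' protocols, a QIAamp Circulating Nucleic Acid Kit gave the RNA, which was copied with the Verso cDNA kit and made into paired-end Nextera XT libraries. The authors deposited FPKM, normalised for transcript length and library size. TopHat, TopHat2 2.0.9 and the builds GRCm38 and mm10 are named per the submitters' processing notes, and the program that computed FPKM is not named in the sources used here. FPKM keep no read counts, so depth is unknown and no count interval can be given. Lungs taken on postnatal days 1, 3 and 14 are named in the labels and not analysed here.

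The 23931 entries were reduced to 23444 symbols by summing 745 entries of 258 repeated symbols. Each column was divided by its median ratio over 7930 genes at 1 FPKM or more in all 4 columns, with factors of 1.147, 0.5806, 1.378 and 1.079 in order of age. Differences are on the log2(scaled FPKM + 1) scale for symbols at 5 or more in the higher library, and a gene was counted at a difference of 1 or more either way. No test was run, because each age has 1 library. The scripts were tested on simulated data (Python 3.11.15, numpy 2.4.6, pandas 2.3.3, matplotlib 3.10.9). Promoters came from RefSeq GRCm38.p6 and the first entry of each gene was used.

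The rule named Pdgfra, the 15 largest differences each way at 10 or more scaled FPKM, the 4 largest and the most abundant member of each list, the 3 most abundant markers of each other cell type, all members of lists with fewer than 6 measured, and genes listed at 0. The 10 leading genes of each class in the comparison of P28 with E16.5 were added. Aplnr, Mki67, Pttg1, Cdkn2c, Ccnb1, Ttk, Sgk1, Igf1, Aspn, Eln, Fbln1, Efemp1, Efemp2, Adam19, Ctnnb1, Plxna2, Vegfc, Ackr3, Prox1, Ptprc, Epcam, Wt1, Nr3c1, Ptch1 and the Y-linked genes fall outside it and were chosen after their values were seen. The genes and lists were chosen with earlier results of these data known. Alternatives were the scaling, the pseudocount, the minimum, the fold threshold and the symbols left out.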

Additional observations from a re-analysis of the deposited data

How the results depend on the processing

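The main counts were 904 genes higher and 738 lower, 14 lists with a median of at least 1 in size, and 354 higher genes also higher at P28 than at E16.5. As deposited these became 4180, 191, 51 and 678. With a pseudocount of 5 they became 460, 465, 8 and 170, and with a 4-fold threshold 266, 239 and 97 for the genes higher, lower and also higher at P28. With a minimum of 20 they became 299, 367 and 156. With no minimum 1171 genes were lower and 9 lists passed, and with the lists for other cell types left out, chosen after seeing the data, 7 lists passed. Upper-quartile scaling, scaling from the pair alone, scaling without 3 gene classes, a pseudocount of 0.1 and leaving out repeated, small RNA or zero symbols moved none of these 4 counts by over 1.5 times. The balance of the counts also turned at upper-quartile scaling (754 higher and 881 lower), at the minimum of 20 and with a pseudocount of 5, and the median over all genes went from 0.05 to -0.09 at upper-quartile scaling, -0.06 at the minimum of 20 and -0.03 with no minimum. Among the lists and named genes at 1 or more in size, directions turned only as deposited. The list medians over the genes that pass the minimum there were 0.117 for the IGF axis, 0.948 for the clock, 0.0307 for chemokines, 0.111 for type 2 epithelium and 0.0467 for airway epithelium. Over the same genes as in the report, chemokines stayed below 0 at -1.51 and type 2 epithelium at -0.64, so their turn came with the added genes, and the clock was at 0.03. The differences of the named genes past 2-fold that turned were 0.22 for Calr, 0.18 for Ifitm3, 0.032 for Itgav, 0.11 for Lpcat1, 0.23 for Pdgfra, 0.05 for Scgb1a1 and 0.13 for Sparcl1. Genes and lists within 2-fold and below 0 turned more widely. Of the named genes past 2-fold, 162 kept it under every setting that gave a value and 76 did not. No paired analysis was possible because each age has 1 library, and for the same reason no replicate could be left out.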
